A study of Mus musculus with 4 samples.

Results

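Isl1 binding was examined around 10 mouse genes: the LIM-homeodomain genes Isl2, Lhx2, Lhx3, Lhx8, Lhx9 and Lmx1b, the LIM domain-binding cofactor genes Ldb1 and Ldb2, and the LIM-only genes Lmo1 and Lmo4. They were a named list, chosen with earlier results of these data known. All 10 were found among the 21887 protein-coding genes of the gene table used. A peak belonged to a gene where its midpoint lay inside the gene or within 500 kb of it. By this rule 35 of 6834 regions shared by both replicates lay near the 10 genes. The study mapped Isl1 by ChIP-seq, in which DNA bound to a protein is recovered with an antibody and sequenced, in 2 Isl1 ChIP samples of wildtype CD1 mouse embryonic genital tubercle at embryonic stage E14.5, and it also held 2 input DNA samples of the same tissue, for which no peak list was analysed here. The genital tubercle is the embryonic bud from which penis or clitoris develops. No RNA was measured, so neither the tissue label nor the expression of the 10 genes could be checked. Replicate 1 had 8860 peaks and replicate 2 had 10162, with whole-number peak scores from 20 to 1637 and from 20 to 1638. Positions are in mm10.

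LIM-homeodomain proteins pair a DNA-binding homeodomain with LIM domains, which bind other proteins. Ldb1 and Ldb2 are the adaptors that hold LIM domains and form dimers, so that Isl1 can be joined to a second LIM-homeodomain protein, as in the Isl1 and Lhx3 complex of mouse motor neurons or the Isl1 and Lhx8 complex of mouse cholinergic forebrain neurons. LIM-only proteins such as Lmo1 and Lmo4 have LIM domains and no homeodomain, and compete for the same adaptors. Isl1 is itself a gene of the family, so the data bear on whether its sites lie near its own relatives and partners.

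Shared Isl1 regions were counted near and inside the genes, beside the same counts for all protein-coding genes. At least 1 shared region was within 500 kb of 9 of the 10 genes, where 78.0% of all protein-coding genes had one, so this count is close to the background. A shared region lay inside 2 of the 10, Ldb2 and Lmo4, against 8.32% of all genes, and 4 regions in total were inside them. None of the 6 LIM-homeodomain genes held one, and neither did most protein-coding genes. Within 100 kb, 7 of the 10 genes had a region, against 38.1% of all genes. When each region was given to the gene that held it, or otherwise to the nearest gene within 100 kb, 3 of the 10 genes received one, Ldb2 with 4, Lmo4 with 2 and Lhx8 with 1, against 14.1% of all genes. With the lists taken singly, replicate 1 had 44 peaks near the 10 genes and replicate 2 had 59. A replicate 2 peak lay inside 4 of the 10 genes, against 10.4% of all genes, and replicate 2 peaks were assigned to 5 of the 10 genes, against 17.6% of all genes. The whole replicate 2 list gave 4 assigned peaks to Lmo4 and 2 to Lhx8. No test was made on these counts, because there were 2 libraries of 1 condition and the genes were a chosen list.

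**Figure D1:**
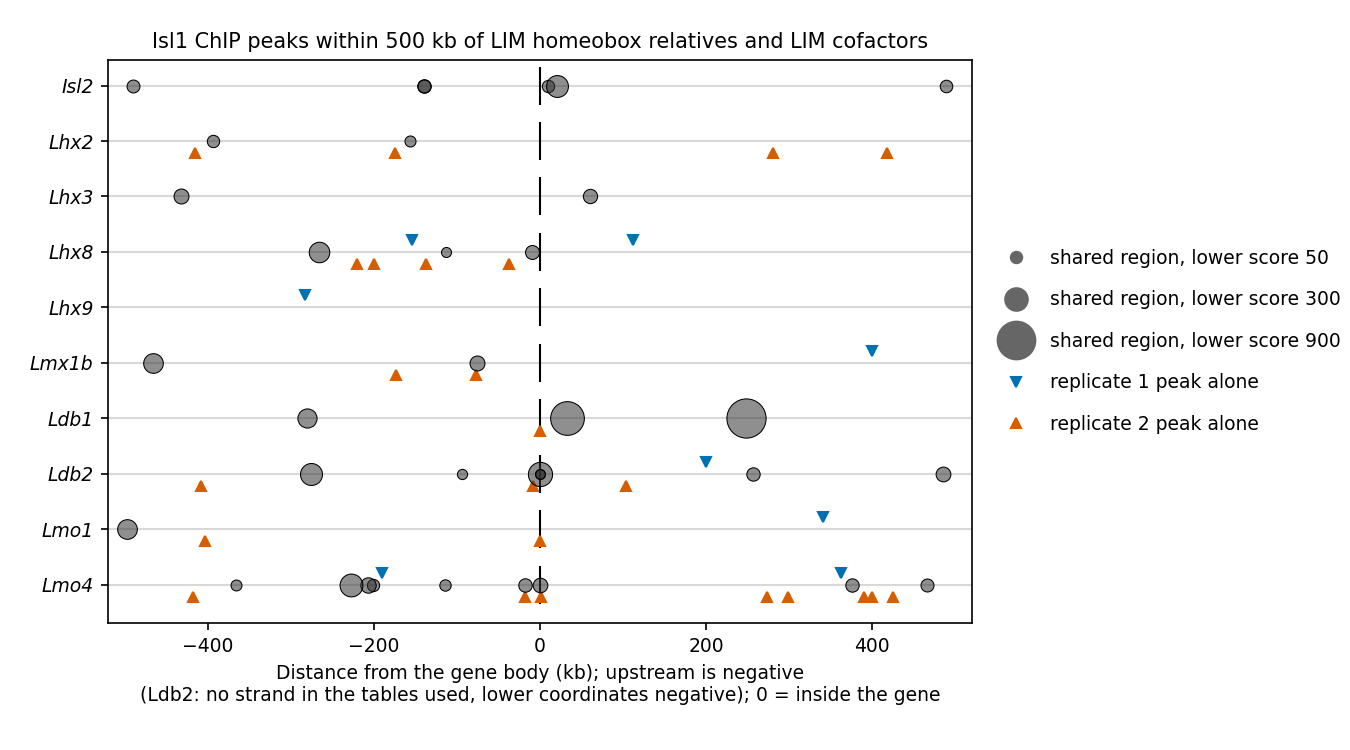
Positions of Isl1 peaks within 500 kb of each gene, with the distance from the gene body in kb on the horizontal axis. Grey circles are regions shared by both replicates, with an area that grows with the lower of the 2 scores, and triangles are peaks in one replicate's list alone. The 2 largest circles belong to Ldb1, Lmo4 has the most circles (9), and Lhx9 has none.

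Of the 35 regions, 17 lay in no protein-coding gene, 14 lay in another gene than the one they were near, and 4 lay in Ldb2 or Lmo4. The 18 regions inside a gene were 51.4% (Wilson 95% interval 35.6 to 67.0%), against 42.8% of all 6834 regions. For 24 of the 35 the gene that held the region or was nearest to it was a neighbour. The windows reached 4 to 28 other protein-coding genes each, and this count was not made for the windows of all genes. By distance, 4 regions were inside, 1 was up to 10 kb away, 7 were 10 to 100 kb, 9 were 100 to 250 kb and 14 were 250 to 500 kb away. Strand was known for 9 of the 10 genes, and around those 19 regions lay upstream of the gene and 8 downstream. No such split over all genes is given here to set beside it.

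Isl2, the closest relative of Isl1 and a motor neuron gene, had 6 shared regions within 500 kb (chr9:55538677-55547667). Its window held the same 6 sites in both lists and no peak of one list alone. The strongest lay 20.6 kb beyond the 3′ end, at chr9:55568112-55568528, inside the neighbouring gene Scaper, with scores of 281 in replicate 1 and 450 in replicate 2. A second region in Scaper was nearer, 9.71 kb from Isl2, with scores of 66 and 166. Upstream, a pair of regions 331 bp apart lay inside Tmem266, 139.6 kb and 139.3 kb from Isl2. Their scores were 138 and 87 for the farther and 73 and 108 for the nearer, in replicates 1 and 2. The outermost regions were 490.1 kb upstream at Chrnb4, a nicotinic acetylcholine receptor subunit gene, and 488.9 kb downstream near Rcn2. The Chrnb4 region ranked higher in replicate 1 (score 206) than in replicate 2 (score 75). No region was inside Isl2, and both of those within 100 kb lay in Scaper, so none was assigned to Isl2 itself.

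Lhx8, which acts in cholinergic neurons, palate and oocytes of the mouse, was the one LIM-homeodomain gene of the 10 with an assigned region. The region was 10.1 kb upstream of the gene (chr3:154306288-154330560), at chr3:154340545-154340779, and scored 138 in replicate 1 and 94 in replicate 2. A weaker region 113.1 kb upstream scored 85 and 32. The highest scores in the window, 382 and 243, belonged to a region 266.6 kb upstream. It lay across the start of Cryz, a quinone oxidoreductase gene, and of Tyw3, a tRNA-modifying enzyme gene, which run in opposite directions from there. All 3 shared regions of Lhx8 were on its upstream side. Replicate 1 had 2 further peaks alone, with scores of 32 and 87, and replicate 2 had 4, with scores from 60 to 127, the nearest of them 37.0 kb upstream.

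The sequence of the Cryz start is shown because the strongest region near Lhx8 covered it, at another gene's promoter. It runs from 250 bases before to 50 bases after the gene start, 5′ to 3′ on the plus strand (chr3:154596947-154597246, RefSeq, GRCm38.p6), and the capitals mark the 190 bases that the region covered.
Cryz: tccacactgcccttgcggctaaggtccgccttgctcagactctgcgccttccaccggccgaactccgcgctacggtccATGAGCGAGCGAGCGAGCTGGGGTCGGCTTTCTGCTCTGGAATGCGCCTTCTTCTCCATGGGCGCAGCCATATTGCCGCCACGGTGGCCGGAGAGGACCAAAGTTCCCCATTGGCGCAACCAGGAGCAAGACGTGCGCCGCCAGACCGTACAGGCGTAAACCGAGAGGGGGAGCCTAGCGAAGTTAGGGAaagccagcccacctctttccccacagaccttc

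Lhx2 and Lhx9 are close relatives that act in mouse limb buds, and Lhx9 is also needed for the gonad. Lhx2 (chr2:38339271-38369737) had 2 shared regions, both inside the upstream gene Dennd1a, 156.9 kb and 393.1 kb away. They scored 46 and 66 in replicate 1 and 91 and 164 in replicate 2. Replicate 2 alone had 4 more peaks in the window, with scores from 40 to 84. Lhx9 (chr1:138825186-138848839) had no shared region within 500 kb. Its nearest was 577.3 kb away and scored 46 and 100. The window of Lhx9 held 1 peak in replicate 1, 282.7 kb upstream in Dennd1b with a score of 93, and none in replicate 2. At these scores a site under the authors' threshold would not be listed, so Lhx9 is not shown to lack Isl1 sites.

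Lhx3, a pituitary and motor neuron gene that works beside Isl1 in mouse motor neurons, had 2 shared regions and no peak of one list alone (chr2:26200212-26208249). One lay 59.8 kb beyond the 3′ end, inside Tmem250-ps and 0.106 kb from an end of it, with scores of 195 and 100. The other lay 432.1 kb upstream at the start of Snhg7, a small nucleolar RNA host gene, with scores of 113 and 118. Lmx1b, which sets dorsal fate in the mouse limb, also had 2 (chr2:33560965-33641208). The nearer, 76.3 kb upstream, spanned 609 bp, the widest of the 35, and scored 113 in replicate 1 and 184 in replicate 2. Its nearest gene was Mvb12b, 12.4 kb away, so it was not assigned to Lmx1b. Replicate 2 had a further peak 77.0 kb upstream, with a score of 83, that replicate 1 did not list. The second, 465.9 kb upstream and 64.3 kb from Pbx3, a homeobox gene, scored 220 and 243.

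Ldb1, the widely used adaptor of LIM-homeodomain and LIM-only proteins, had the strongest regions of the set, and all 3 lay at other genes. At chr19:45783546-45783926, 247.9 kb downstream of Ldb1 (chr19:46031525-46048145), the scores were 977 in replicate 1 and 990 in replicate 2. This region lay 0.029 kb from an end of Oga, which encodes the enzyme that removes O-GlcNAc from proteins. At chr19:45998462-45998653, 33.0 kb downstream of Ldb1, the scores were 714 and 856, and the region lay in Armh3, 0.072 kb from the gene boundary at its start. By the lower of the 2 scores, these regions ranked 28 and 122 among the 6834. The third, 280.4 kb upstream, lay in Fbxl15, an F-box gene, 0.401 kb from an end of it, with scores of 507 and 207.

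Inside Ldb1 the only peak was in replicate 2, at chr19:46039565-46039695, with a score of 44, at percentile 7.92 of that list. It covered 124 bases of one of the 3 Ldb1 start windows in the promoter table, and replicate 1 listed no peak there. None of the other 15 start windows of the 9 genes in that table met a peak of either list. The starts of Oga and Armh3 are shown as the sites with the highest scores near an adaptor gene, and the Ldb1 start for the single low peak on it. All 3 are on the minus strand, 5′ to 3′, from RefSeq, GRCm38.p6: Oga at chr19:45783504-45783803, Armh3 at chr19:45998439-45998738 and Ldb1 at chr19:46039572-46039871. Capitals mark the 258 bases of Oga and the 192 bases of Armh3 that the shared region covered, and the 124 bases of Ldb1 that the replicate 2 peak covered.
Oga: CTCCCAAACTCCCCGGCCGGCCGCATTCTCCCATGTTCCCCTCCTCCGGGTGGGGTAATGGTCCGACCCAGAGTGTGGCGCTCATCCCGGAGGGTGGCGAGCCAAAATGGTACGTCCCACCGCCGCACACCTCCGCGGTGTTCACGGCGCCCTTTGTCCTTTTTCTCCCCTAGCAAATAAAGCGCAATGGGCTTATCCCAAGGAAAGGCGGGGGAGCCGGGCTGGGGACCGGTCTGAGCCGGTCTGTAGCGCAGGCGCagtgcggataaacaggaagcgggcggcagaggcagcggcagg
Armh3: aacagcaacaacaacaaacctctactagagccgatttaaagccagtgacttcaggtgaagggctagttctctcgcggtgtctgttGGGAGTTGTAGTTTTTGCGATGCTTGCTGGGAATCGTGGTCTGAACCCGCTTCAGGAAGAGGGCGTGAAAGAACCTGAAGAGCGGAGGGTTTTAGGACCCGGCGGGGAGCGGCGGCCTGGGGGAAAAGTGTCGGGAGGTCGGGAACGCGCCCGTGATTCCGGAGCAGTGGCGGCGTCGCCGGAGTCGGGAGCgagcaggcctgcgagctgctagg
Ldb1: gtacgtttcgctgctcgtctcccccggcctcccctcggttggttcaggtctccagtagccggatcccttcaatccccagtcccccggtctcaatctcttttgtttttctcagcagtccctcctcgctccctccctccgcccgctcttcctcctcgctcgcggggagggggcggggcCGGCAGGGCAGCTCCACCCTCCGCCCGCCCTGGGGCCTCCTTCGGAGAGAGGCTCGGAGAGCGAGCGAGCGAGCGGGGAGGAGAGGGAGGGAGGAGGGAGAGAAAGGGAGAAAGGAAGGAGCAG

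Ldb2, the second adaptor gene, had 7 shared regions, and 3 of them were inside the gene (chr5:44435955-44799759), where Ldb1 had none. Ldb2 is 363.8 kb long against 16.6 kb for Ldb1, and among the 557 protein-coding genes of 300 kb and more, 66.6% held a shared region, so a region inside a gene of that length is common. The strongest, at chr5:44586555-44586986, scored 351 in replicate 1 and 397 in replicate 2. A second lay 495 bp farther along (midpoint to midpoint) and was weak, with scores of 31 and 60, and its peaks overlapped by 46 bp, the least of the 35. The third, at chr5:44611917-44612142, was the most unlike between replicates of all 35, with a score of 196 at percentile 80.8 of replicate 1 and of 28 at percentile 1.59 of replicate 2. The fourth assigned region lay outside, 94.2 kb from Ldb2 on the side of lower coordinates, with scores of 69 and 34. Of the remaining 3, the strongest scored 284 and 474, 275.3 kb away and 14.54 kb from Tapt1. The others, 255.8 and 485.3 kb away on the other side, scored 93 and 83, and 109 and 157.

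Lmo4, a LIM-only gene needed for neural tube closure in the mouse, had 9 shared regions within 500 kb, the most of the 10 genes. Of all protein-coding genes, 2.25% had more and 1.09% had as many. One region was inside the gene (chr3:144188530-144205255), at chr3:144203914-144204199, 1.16 kb from its start, with scores of 153 in replicate 1 and 106 in replicate 2. Among the 11848 genes under 20 kb, as Lmo4 is at 16.7 kb, 2.21% held a shared region. Another, 17.9 kb upstream, scored 85 and 118, and the 2 were those assigned to Lmo4.

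Farther upstream of Lmo4, 3 regions lay close together at 200.7, 206.6 and 227.3 kb. Their scores were 65, 187 and 309 in replicate 1 and 67, 122 and 403 in replicate 2. The strongest of them lay inside Hs2st1, a heparan sulfate 2-O-sulfotransferase gene, and the other 2 were closer to that gene than to Lmo4. Weaker regions lay 114.4 kb upstream, with scores of 59 and 51, and 365.4 kb upstream in Selenof, a selenoprotein gene, with scores of 59 and 44. In all 6 regions lay upstream and 2 downstream of Lmo4. The 2 downstream ones, 375.4 and 466.1 kb away, had Lmo4 as their nearest protein-coding gene. They scored 83 and 93 in replicate 1 and 137 and 77 in replicate 2. Replicate 2 listed 8 peaks in the window that replicate 1 did not, one of them 1.43 kb beyond the 3′ end with a score of 91, and replicate 1 listed 2 that replicate 2 did not.

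Lmo1, known as a T-cell leukaemia oncogene in humans, stood at the other end of the LIM-only pair (chr7:109138565-109175207). Its single shared region lay 497.2 kb upstream, inside Denn2b, with scores of 220 and 243. Inside Lmo1 replicate 2 alone had a peak, at chr7:109145783-109145930, with a score of 59.

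The starts of the genes were searched on both strands for TAATTA, a sequence that many homeodomains bind, and for a pair of sequences of the kind known for Isl1, written CTAATGG in the one form and CTAATTG in the other. Of 32851 start windows of 300 bases in the promoter table, 5.29% held TAATTA, 2.0% held CTAATGG and 1.98% held CTAATTG. The table had 16 windows for 9 of the 10 genes, all but Ldb2. TAATTA was found in both Lmo1 windows, which overlap each other and hold the same match, CTAATGG in 1 Ldb1 window and CTAATTG in another. All of them begin with or contain the same homeodomain core, and no match overlapped another. None was in the Ldb1 window met by the replicate 2 peak, nor in the windows of Oga, Armh3, Cryz, Tyw3, Chrnb4 or Snhg7 that shared regions met. One Lmo1 window and both Ldb1 windows with a match are shown because no peak of either list met them. They are on the minus strand, 5′ to 3′ (RefSeq, GRCm38.p6), with the match in capitals: Lmo1 at chr7:109175158-109175457, the first Ldb1 window at chr19:46037021-46037320 and the second, whose match reads on the opposite strand, at chr19:46045262-46045561.
Lmo1: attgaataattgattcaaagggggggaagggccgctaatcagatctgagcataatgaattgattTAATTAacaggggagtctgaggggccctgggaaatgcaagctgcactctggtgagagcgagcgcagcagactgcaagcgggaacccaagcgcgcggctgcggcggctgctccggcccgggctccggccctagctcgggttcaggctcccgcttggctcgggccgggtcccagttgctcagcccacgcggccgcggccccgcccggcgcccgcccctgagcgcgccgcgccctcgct
Ldb1, first window: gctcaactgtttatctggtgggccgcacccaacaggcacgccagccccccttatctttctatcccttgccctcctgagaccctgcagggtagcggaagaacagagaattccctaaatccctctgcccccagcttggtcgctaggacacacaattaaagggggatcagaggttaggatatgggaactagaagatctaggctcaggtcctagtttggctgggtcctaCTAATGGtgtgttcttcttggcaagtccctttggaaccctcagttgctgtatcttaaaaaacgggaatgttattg
Ldb1, second window: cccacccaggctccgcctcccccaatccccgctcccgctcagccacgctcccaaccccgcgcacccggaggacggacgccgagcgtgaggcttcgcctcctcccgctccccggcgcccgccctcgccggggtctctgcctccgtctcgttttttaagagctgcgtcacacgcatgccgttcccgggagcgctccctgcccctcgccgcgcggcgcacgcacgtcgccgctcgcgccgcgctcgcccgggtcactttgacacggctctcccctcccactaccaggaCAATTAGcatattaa

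Near the 10 genes the replicates had 35 shared regions, and 32 further peaks were in one list alone. Of the replicate 1 peaks within 500 kb of the 10 genes, 36 of 44 (81.8%, Wilson 95% interval 68.0 to 90.5%) overlapped a replicate 2 peak, against 78.5% of all replicate 1 peaks. In replicate 2 it was 35 of 59 (59.3%, 46.6 to 70.9%), against 68.3% of all its peaks. These intervals cover counting error alone, and each holds the share over the whole list. The peaks of one list alone were mostly weak: 2 of 8 in replicate 1 and 2 of 24 in replicate 2 reached the median score of their list, which was 90 and 96. Such peaks were weak across the lists as a whole. Their median score was 60.5 in replicate 1 and 60 in replicate 2 near the 10 genes, against 60 and 66 genome-wide. Between the lists, the scores of the 35 regions were correlated with a Spearman rho of 0.674, against 0.717 for all 6834. Regions share their libraries and are not replicates, so this is a description.

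**Figure D2:**
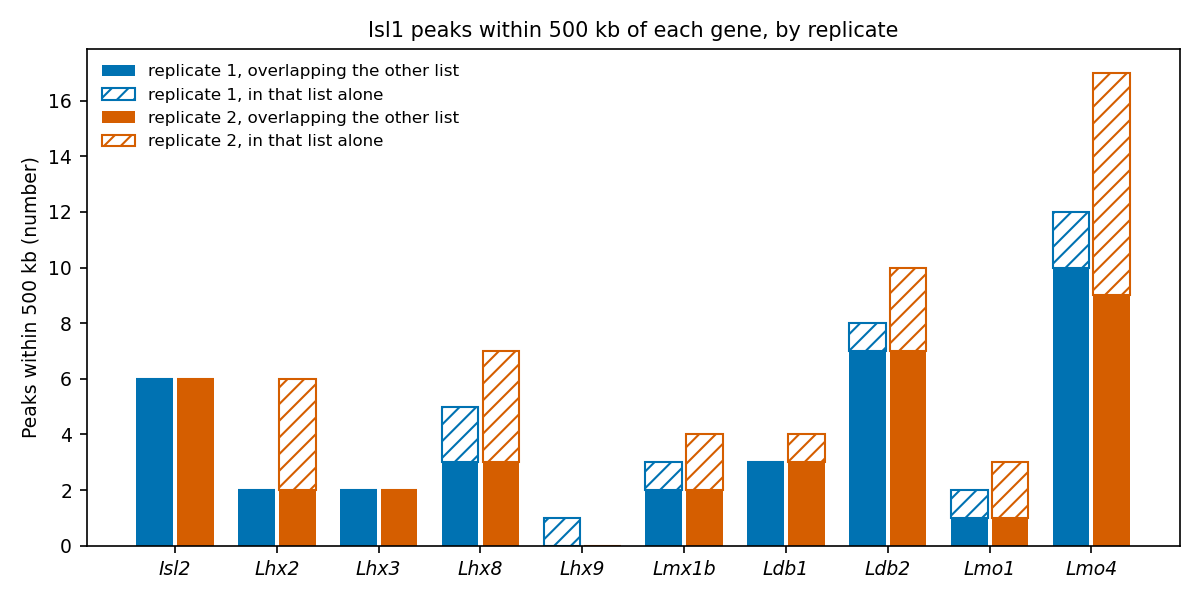
Number of Isl1 peaks within 500 kb of each gene in each replicate, with solid bars for peaks that overlapped the other list and hatched bars for peaks in that list alone. Isl2 and Lhx3 had no peak in one list alone, and Lmo4 had 8 in replicate 2 alone.

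By the number of listed peaks, Lmo4 (12 in replicate 1 and 17 in replicate 2) stood above Ldb2 (8 and 10), and Ldb2 above Isl2 (6 and 6). The counts of Isl2 lay between those of Lhx8 (5 and 7). With 2 lists of unlike size, such ranges do not measure replicate error, and no test was made. Ldb1 and Lmx1b had 3 and 4 each, Lmo1 had 2 and 3, and the range of Lhx2 (2 and 6) took in those of all 3. Lhx3 (2 and 2) lay below Ldb1 and Lmx1b and met the ranges of Lhx2 and Lmo1. Lhx9 had 1 and 0. This order of counts depended on the settings. With peaks at or above the median score, Lmo4, Ldb2 and Ldb1 had 3 shared regions each and Isl2 had 1. Within 100 kb, Ldb2 had 4 shared regions, and Lmo4 and Isl2 had 2 each. The order of the scores was a different one. The median of the lower score over a gene's shared regions was 714 for Ldb1, with 3 regions that all lay at other genes. It was 74 for Isl2 and 83 for both Ldb2 and Lmo4. Between these lay Lmo1 with 220, Lmx1b with 166.5, Lhx3 with 106.5 and Lhx8 with 94, and Lhx2 was lowest with 56.

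**Figure D3:**
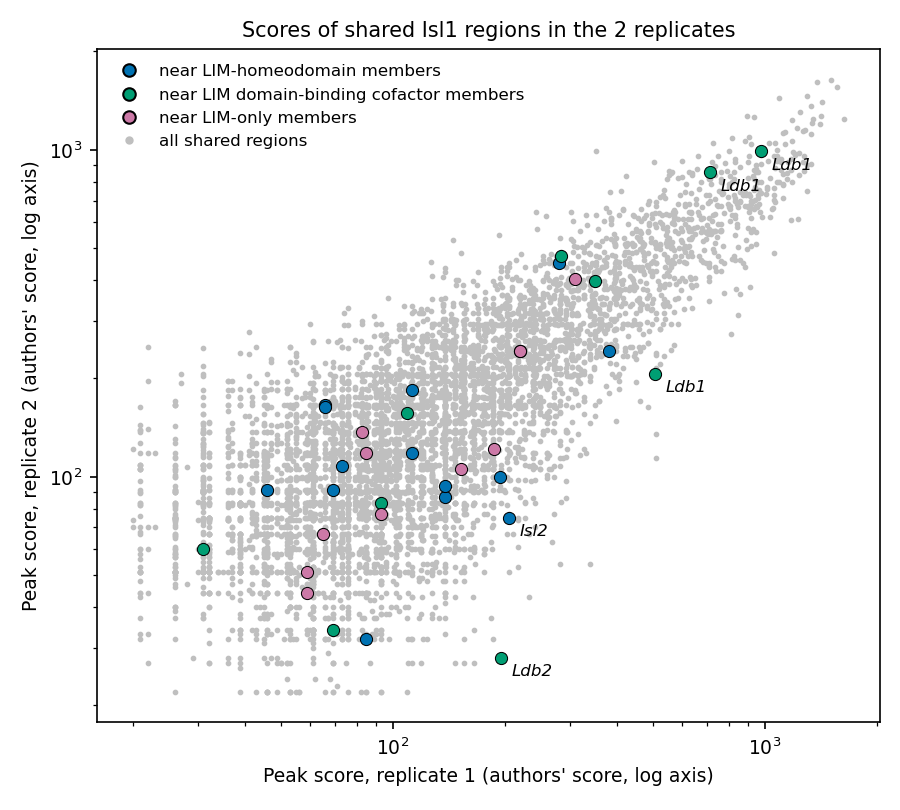
Scores of the shared Isl1 regions in replicate 1 (horizontal) and replicate 2 (vertical), both on log axes, with the 35 regions near the 10 genes in colour by gene class over all 6834 regions in grey. The Ldb1 regions at Oga and Armh3 sit at the upper end, and the Ldb2 region with scores of 196 and 28 lies at the lower edge of the cloud. The 2 regions near Lmo1 and Lmx1b with scores of 220 and 243 coincide.

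The 35 regions were also set beside the whole set for strength and position. Their lower score had a median of 87 (quartiles 66 and 213.5), against 91 (59 and 166) over all 6834 regions. Their median width was 233 bp, against 251 bp. Of the 35, 7 (20.0%, Wilson 95% interval 10.04 to 35.9%) lay within 1 kb of either end of a protein-coding gene, against 13.6% of all regions. All 7 ends were those of neighbouring genes. A start window of the promoter table was met by 5 (14.3%, 6.26 to 29.4%), against 10.7% of all regions, and the 6 windows they met, with both Cryz and Tyw3 under one region, all belonged to other genes than the 10. Both scores were in the top 10% of their lists for 3 of 35 regions, against 10.4% of all regions. These 3 were the Oga and Armh3 regions near Ldb1 and the strongest region inside Ldb2.

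The other genes of the family and its cofactors were 12: Isl1, Lhx1, Lhx4, Lhx5, Lhx6 and Lmx1a, the LIM-only genes Lmo2 and Lmo3, and the cofactor genes Ssbp2, Ssbp3, Ssbp4 and Rlim. Of these 12, 9 had a shared region within 500 kb, against 78.0% of all protein-coding genes. A region lay inside 1 of them, against 8.32% of all genes, and 4 were assigned one, against 14.1%. The counts within 500 kb and inside are close to the background. The median number within 500 kb was 2.5 over the 10 genes described and 2.5 over these 12, against 2 over all protein-coding genes. Isl1 itself had 13, the most of both lists. Ssbp2, whose product stabilises Ldb complexes, had 8, of which 1 was inside, and Ssbp3, a relative of it, had 6, the nearest 1.09 kb away. Lhx6 had 5, Lmo2 4, Lhx5 3, Lhx4 and Lmx1a 2 each and Lhx1 1. Lmo3, Ssbp4 and Rlim, an E3 ubiquitin ligase that acts on Ldb proteins, had none. Taken singly, the lists moved some of these counts by more than 1.5 times or from 0. The whole replicate 2 list had 7 peaks near Lmx1a, 5 near Lhx5, 2 near Lhx1 and 1 each near Lmo3 and Ssbp4. The whole replicate 1 list had 4 near Lhx4. Peaks of the replicate 2 list lay inside 3 of the 12 genes, Ssbp2, Lmx1a and Lmo3, against 10.4% of all genes. Ssbp2 also held a replicate 1 peak.

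**Figure D4:**
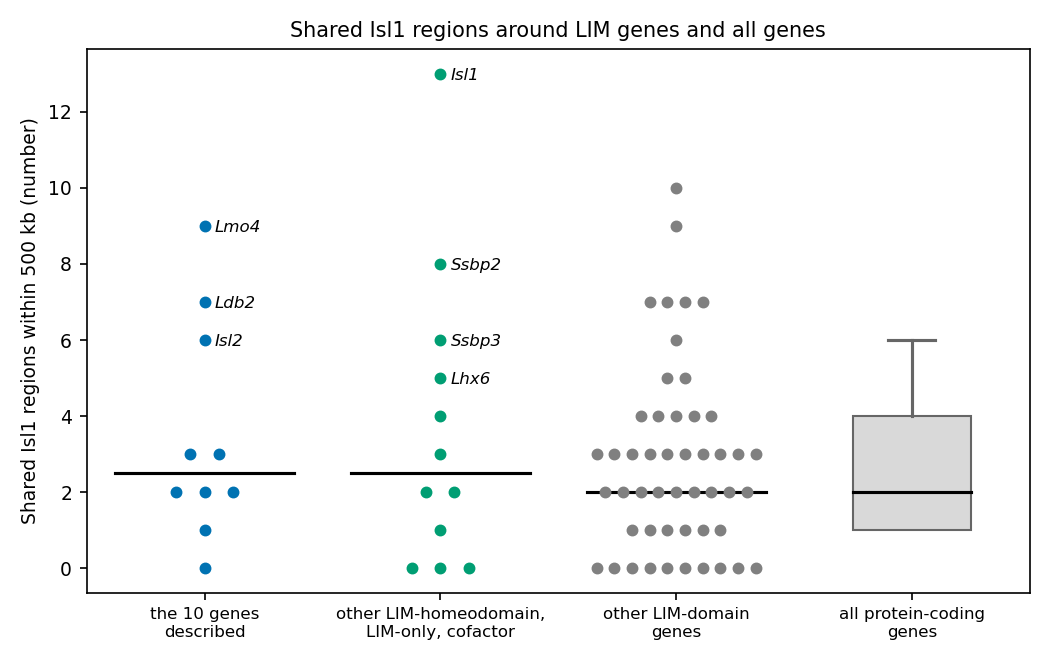
Number of shared Isl1 regions within 500 kb of each gene, with 1 point per gene, for the 10 genes described, the 12 other LIM-homeodomain, LIM-only and cofactor genes and 49 other LIM-domain genes, with black lines at the medians. The box spans the quartiles over all 21887 protein-coding genes (1 to 4, median 2) and its whisker ends at the ninetieth percentile, 6, a value that Isl2 reaches and Ldb2 and Lmo4 exceed. A window includes the gene body, so that of Ldb2, which is 363.8 kb long, is wider than that of a shorter gene.

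The limit of 500 kb set some of these counts. Just inside it lay the Lmo1 region at 497.2 kb, the Isl2 regions at 490.1 and 488.9 kb and the Ldb2 region at 485.3 kb. Just outside it, up to 600 kb, lay 6 regions: one of Isl2 at 525.5 kb with scores of 269 and 253, one of Lhx2 at 556.9 kb with scores of 1118 and 712, one of Lhx9 at 577.3 kb, and 3 of Lmo4 at 542.9, 581.2 and 591.1 kb.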

How the data were processed

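Isl1 ChIP-seq of E14.5 genital tubercle was read as 75 bp single-end reads after fixation in 1% formaldehyde, per the labels' protocols. Per the submitters' processing notes, the tools were Trimmomatic 0.35, Bowtie2 2.2.6, MACS2 2.1.0.20150731 and bedtools, on build mm10; their order and settings are not stated there. The authors deposited 1 peak list per ChIP sample, in which each line is a peak's position and its whole-number score. How the score was calculated, which threshold was applied and how the input entered are all not given in the sources used here. Read totals are not in the lists, so depth is unknown, and scores are not known to be comparable between libraries. The labels do not say whether the replicates came from separate pools of embryos.

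Peaks that overlapped by at least 1 bp were called shared. Such peaks were joined into a shared region, which takes the highest score of each list and is placed by the midpoint of its longest overlap. Percentiles rank a score within its own list. Gene bodies came from the RefSeq table of GRCm38.p6, whose coordinates are those of mm10, and strand and start windows from a RefSeq promoter table of the same build. Exons and introns were not annotated. The overlap step was tested on simulated peaks and found the planted number of shared peaks. Window counts and assignments of those peaks equalled those of a separate, direct calculation. The joining of several peaks into a region was not tested. Python 3.11.15, pandas 2.3.3 and scipy 1.17.1 were used. All 10 genes are named, with the listed relatives, the 4 other LIM-domain genes with most assigned regions and the genes that hold or adjoin a region. The genes and lists were chosen with earlier results of these data known. Alternatives were a 50% reciprocal overlap, peaks at or above the median score, windows of 100 kb, 250 kb and 1 Mb, other midpoints and distances, the nearest gene end, and each replicate alone. A planned comparison of protein sequences was not made.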

Additional observations from a re-analysis of the deposited data

How the results depend on the processing

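The number of genes with a shared region within the window stayed between 7 and 10 under every alternative run for it. The total of 35 regions followed the settings: it was 16 with peaks at or above the median score, 12 within 100 kb, 21 within 250 kb and 61 within 1 Mb, and 44 to 59 with one replicate's list alone, as wider windows and single lists hold more peaks by construction. With peaks at or above the median score, 2 regions were left inside the genes in place of 4, and 66.7% of replicate 1 peaks were shared in place of 81.8%. Within 100 kb all of them were (100%). With one list alone, 4 to 6 peaks lay inside the genes, and 3 to 5 of the 10 genes were assigned one. Of 90 counts of regions around single genes, 32 changed by more than 1.5 times or to or from 0. Lhx9 gained 5 regions within 1 Mb, and Lhx2 had none with peaks at or above the median score. No paired analysis was possible because only the ChIP samples came with peaks, so that an input of the same number had no value to pair.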

Other observations

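LIM domains also occur in many proteins that are neither transcription factors nor LIM-only proteins, and 49 such genes were listed beside the family. Of these, 39 had a shared Isl1 region within 500 kb, where 78.0% of all protein-coding genes had one. A shared region lay inside 13 of them, against 8.32% of all genes, and 16 were assigned one, against 14.1%. These genes had a median length of 40.7 kb, against 17.2 kb over all protein-coding genes, and a longer gene holds a region more often, so the counts are not read against the background. Limch1, which binds actin and myosin, had 5 assigned regions (8 peaks with the whole replicate 2 list), of which 4 were inside its 311.3 kb. Pdlim3, an actin-associated muscle gene, had 4, with all 7 regions of its 500 kb window lying within 100 kb of the gene. Prickle1, a planar cell polarity gene, and Lpp, a focal adhesion gene, had 3 each.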
